A study of Homo sapiens with 23 samples.

Results

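The gene described here is BCL6 (ENSG00000113916), the repressor that the molecule CDK-TCIP1 was built to hold. It was taken by name, as the estimated counts of its 11 transcripts, summed and one by one, in all 23 libraries and all 9 groups. It is 1 of 58592 genes in the tables, and its transcripts are 11 of 227912. The libraries are poly(A) RNA of SUDHL5 cells, an established human line of diffuse large B-cell lymphoma. Doses of CDK-TCIP1 over 2 h were 10 nM in 2 libraries, 30 nM in 4 and 100 nM in 3, and 3 further libraries had 30 nM over 4 h. The comparison compounds Neg1 (BAK-04-054) and Neg2 (BAK-04-066) were given at 30 nM for 4 h and for 2 h, with 2 libraries for each compound and time. The vehicle DMSO had 3 libraries, all at 4 h, and every compound was added in the same final share of DMSO. Comparisons of the 2 h groups with DMSO therefore differ in time as well as in compound. The labels do not give how Neg1 and Neg2 differ from CDK-TCIP1 in structure, and give no word on which replicates came from different cultures. The p-values thus measure the spread between these libraries, which may be technical.

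BCL6 encodes a zinc finger protein with a BTB domain that keeps germinal centre B cells in their state by repressing genes of the DNA damage response, of cell cycle arrest, of activation and of plasma cell differentiation. Its BTB domain binds the corepressors NCOR1 and BCOR, its zinc fingers bind DNA, and it is known to bind its own first exon and repress its own gene. CDK-TCIP1 joins a ligand of the BTB domain to an inhibitor that binds CDK9, the kinase that releases paused RNA polymerase II. The libraries ask what happens to mRNAs, the one for BCL6 among them, when BCL6 and that kinase are brought together.

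BCL6 lies on the minus strand of chromosome 3, at chr3:187721377-187745727 in GRCh38. Its main transcript, BCL6-202, has 10 exons and starts with exon 1 at chr3:187745410-187745727. BCL6-201 and BCL6-203 start instead at an internal first exon further into the gene. BCL6-206 and BCL6-211 lack the 168-base exon at chr3:187726731-187726898, which is exon 7 of BCL6-202 and lies in the zinc finger part. Its length equals 56 codons, so leaving it out keeps the reading frame, although the exon begins and ends inside a codon. The exon is shown in full because it alone sets these forms apart from the full-length mRNA in the coding part, and the next lines give the joined ends that tell these transcripts apart, with the bases after the junction in capitals (transcript sequences of GENCODE 29).
168-base exon: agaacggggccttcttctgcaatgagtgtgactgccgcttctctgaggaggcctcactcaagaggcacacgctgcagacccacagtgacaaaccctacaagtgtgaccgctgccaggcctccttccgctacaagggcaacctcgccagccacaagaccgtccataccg
BCL6-202: cagattctagctgtgAGAACGGGGCCTTCT
BCL6-206: cagattctagctgtgGTGAGAAACCCTATC
Both lines share the bases in lower case and part at the junction.

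The start of the gene is shown because BCL6 is known to bind there. In the RefSeq sequence of GRCh38.p14, on the strand of the gene, the stretch at chr3:187745450-187745473 inside exon 1 holds the motif of BCL6 side by side with a second copy, with both copies in capitals.
exon 1: TTCTTAGAActggggTTCTTAGAA
The motif searched was TTCNTAGAA, on both strands, in windows of 300 bases that run from 250 before to 50 after each annotated start. The BCL6 window held 3 matches, the 2 copies above and another at chr3:187745424-187745432 on the opposite strand. Over all 35116 windows, 0.948% held a match and 6 windows, or 0.0171%, held at least 2. The other annotated BCL6 window held none of these letters. A match is a description of the sequence and says nothing of occupancy in these cells.

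Library totals ran from 17396484 to 26373153 estimated counts, and BCL6 drew at least 5591 of them in each library. Genes too low to test were removed, which left 17743 genes. All 11 germinal centre B cell markers passed this filter. BCL6 itself is among them, at 311 to 410 CPM (counts scaled by TMM to a common library total), so their sum includes its change. Their summed level was 2630 to 2750 CPM in CDK-TCIP1 30 nM 4 h libraries, against 3080 to 3230 CPM in DMSO libraries. At 2 h it was 2960 to 3160 CPM at 10 nM, 3010 to 3150 CPM at 30 nM and 3200 to 3450 CPM at 100 nM. Neg1 at 2 h had 3260 to 3310 CPM, and Neg2 at 2 h had 3160 to 3190 CPM. The 5 plasma cell markers summed to 55.7 to 64.0 CPM with CDK-TCIP1 30 nM at 4 h, against 52.1 to 59.7 CPM with DMSO, and to 37.6 to 39.2 CPM with 100 nM at 2 h, against 58.1 to 69.9 CPM with Neg1 and Neg2. XBP1 held most of this sum (26.0 to 56.5 CPM), SDC1 and TNFRSF17 reached 10.1 and 6.72 CPM, and PRDM1 and IRF4 at most 1.22 and 0.214 CPM. The 7 T and NK cell markers summed to 1.65 to 4.26 CPM over all libraries (CD3E at most 2.75 CPM, CD2 at 0), and the 5 myeloid markers to 0.539 to 1.67 CPM (LYZ at most 1.0 CPM, S100A9 at 0). The 5 erythroid markers summed to 0.424 to 1.88 CPM with CDK-TCIP1 30 nM at 4 h, against 0 to 0.312 CPM with DMSO, with HBB and HBA2 at 0 and ALAS2 at most 1.88 CPM. The part of these markers in the BCL6 values was not tested. The first 100 nM library lay furthest from the mean of its own group. Its root mean square deviation was 0.455 on the log2 scale, against 0.325 to 0.434 in the other libraries. This deviation also depends on the number of libraries in a group, so groups of unlike size are not directly comparable. In bulk RNA, fewer cells with a transcript and less of it per cell cannot be told apart.

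BCL6 mRNA was lower in every CDK-TCIP1 group than in the vehicle, by a small amount. BCL6 stood at 338, 335 and 352 CPM in CDK-TCIP1 30 nM 4 h libraries, against 410, 393 and 400 CPM in DMSO 4 h libraries. The groups did not overlap, and they averaged 342 ± 9.02 and 401 ± 8.47 CPM (SD, n = 3 each). The level with CDK-TCIP1 was 0.853 times that with DMSO, a log2 fold change of -0.23 ± 0.046 (standard error; 95% interval -0.323 to -0.135), with an adjusted p of 0.000269 by edgeR's quasi-likelihood test with Benjamini-Hochberg adjustment. In that comparison 36.8% of all genes tested passed the same threshold of 0.05, so the call itself does not set BCL6 apart. Nor does its size, since 30.6% of the genes had a lower log2 fold change than BCL6, and the median over all genes was 0.034. Per length, the summed TPM of BCL6, kallisto's measure that divides by transcript length, was 173, 167 and 167 with CDK-TCIP1 at 30 nM for 4 h, against 217, 217 and 211 with DMSO.

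**Figure D1:**
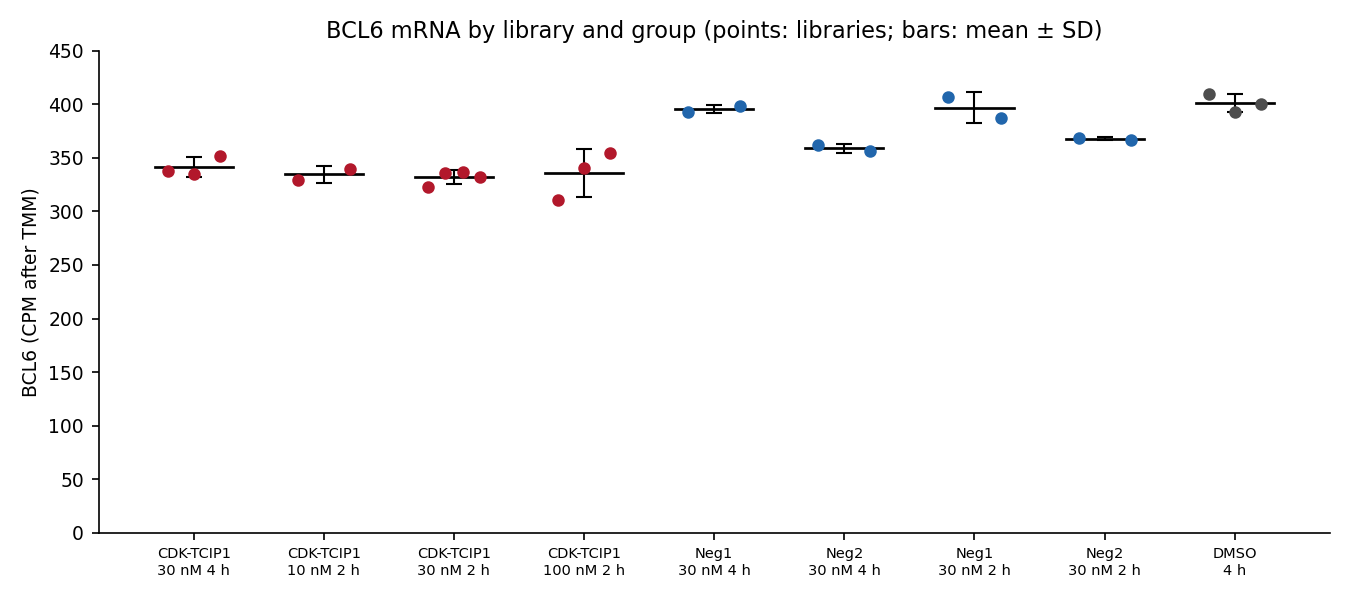
BCL6 mRNA in each library, in CPM after TMM scaling, by group, with the bar at the mean and whiskers of 1 SD. The 12 CDK-TCIP1 libraries sit between 311 and 355 CPM, and the 11 libraries of Neg1, Neg2 and DMSO sit between 356 and 410 CPM.

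At 2 h BCL6 mRNA with CDK-TCIP1 was also lower than with either comparison compound. It was at 329 and 340 CPM at 10 nM, at 323, 336, 337 and 332 CPM at 30 nM, and at 311, 341 and 355 CPM at 100 nM, against 407 and 387 CPM with Neg1 and 369 and 367 CPM with Neg2, both at 30 nM for 2 h. No CDK-TCIP1 library reached the lowest library of either comparison compound. At the matched dose, the log2 fold change of CDK-TCIP1 30 nM over the mean of Neg1 and Neg2 was -0.20 ± 0.040 (adjusted p 0.000231, edgeR), where 37.1% of all genes passed and 30.3% had a lower value. Taken separately, it was -0.26 ± 0.048 over Neg1 (adjusted p 0.000245; 27.8% of genes passed) and -0.15 ± 0.048 over Neg2 (adjusted p 0.0212; 30.5% of genes passed). The call over Neg2 was lost without the first 30 nM library (-0.134, adjusted p 0.0533), without either Neg2 library (adjusted p 0.108 without the first and 0.0729 without the second), with no filter on low genes (0.0718) and with counts scaled by transcript length (0.102).

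Between doses no step passed the test. The mean level was 335 ± 7.47 CPM at 10 nM (n = 2), 332 ± 6.56 CPM at 30 nM (n = 4) and 336 ± 22.0 CPM at 100 nM (n = 3). The log2 fold change of 30 over 10 nM was -0.010 ± 0.049 (95% interval -0.11 to 0.09, adjusted p 0.951), where 2.62% of all genes passed. Those 465 genes became 112 and 52 without the first and the second 10 nM library, 34 with length-scaled counts and 807 with DESeq2. The log2 fold change of 100 over 30 nM was 0.014 ± 0.043 (95% interval -0.074 to 0.103, adjusted p 0.886), where 12.9% of genes passed, and it turned to -0.074 without TMM factors and to -0.005 with no filter on low genes. On the TPM scale the means were 174 at 10 nM, 158 at 30 nM and 142 at 100 nM. With TMM factors the median of all genes was -0.012 for 100 over 30 nM, 0.018 for 100 nM against DMSO and 0.011 for 100 nM against Neg1 and Neg2. Without TMM factors these medians were -0.103, -0.14 and -0.158. There BCL6 itself moved to -0.413 for 100 nM against DMSO and to -0.356 against Neg1 and Neg2, so how alike the doses look depends on TMM. On any of these scales all 3 doses lay below the comparison compounds. Over the mean of Neg1 and Neg2 at 30 nM for 2 h, which differ from them in dose, the log2 fold change was -0.19 ± 0.049 at 10 nM (adjusted p 0.00914; 13.5% of genes passed) and -0.19 ± 0.043 at 100 nM (adjusted p 0.000778; 44.9% of genes passed). The call at 10 nM was lost without the first 10 nM library (-0.16, adjusted p 0.177), with length-scaled counts (-0.118, 0.219) and with only the compared groups in the fit (0.0633).

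**Figure D2:**
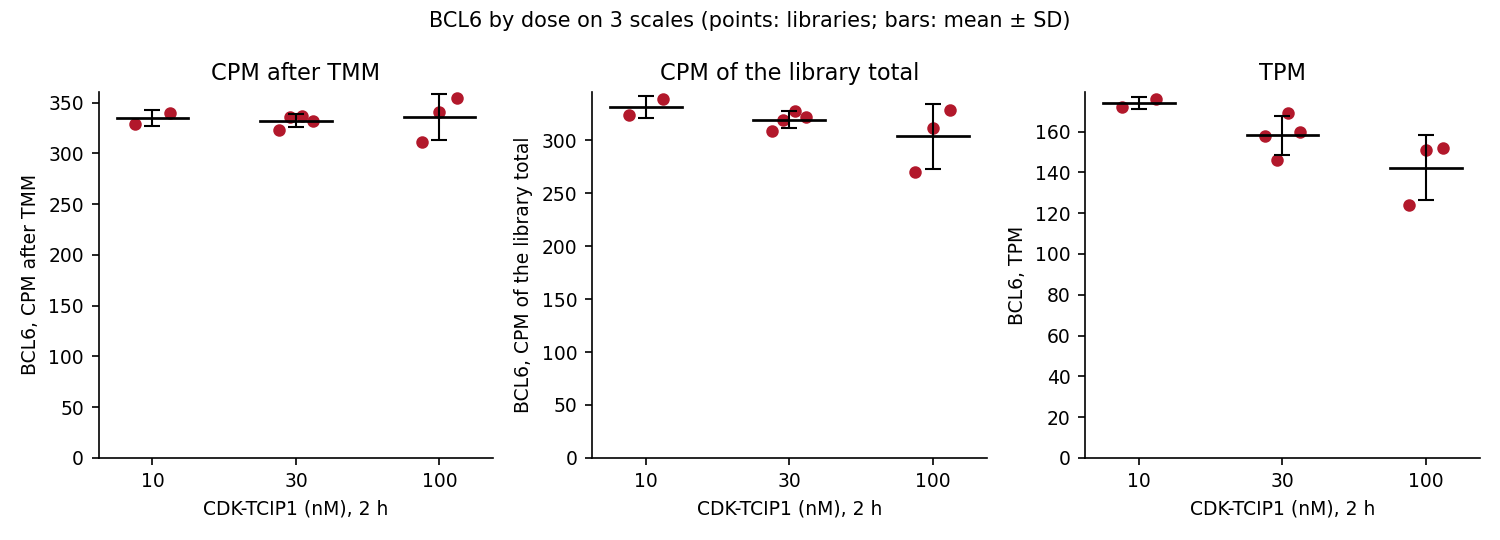
BCL6 by dose of CDK-TCIP1 after 2 h, on 3 scales drawn from 0: CPM after TMM, CPM of the library total, and TPM. Points are libraries and bars are the mean with 1 SD. The TMM means are 335, 332 and 336 CPM from low to high dose, while the TPM means are 174, 158 and 142.

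Set against DMSO at 4 h, with time confounded, the 2 h groups gave log2 fold changes of -0.26 ± 0.051 at 10 nM (adjusted p 0.00113; 13.1% of genes passed), -0.27 ± 0.043 at 30 nM (adjusted p 2.03e-05; 34.3%) and -0.26 ± 0.046 at 100 nM (adjusted p 5.48e-05; 42.6%). These values share the DMSO libraries with each other and with the 4 h comparison. Within CDK-TCIP1 30 nM, the level at 4 h over that at 2 h was 0.041 ± 0.043 (adjusted p 0.569; 21.9% of genes passed), so BCL6 did not pass the test for a change over time. The difference over time of the effect over Neg1 and Neg2 was 0.063 ± 0.058 (95% interval -0.058 to 0.183, adjusted p 0.559; 12% of genes passed).

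Neg2 lay between CDK-TCIP1 and the vehicle. At 4 h BCL6 was at 393 and 398 CPM with Neg1 and at 362 and 356 CPM with Neg2, against 410, 393 and 400 CPM with DMSO. Neg2 over DMSO gave -0.16 ± 0.051, with an unadjusted p of 0.00461 but an adjusted p of 0.785, and Neg1 over DMSO gave -0.019 ± 0.051 (adjusted p 1). Neg1 over Neg2 was 0.14 ± 0.056 at 4 h (95% interval 0.025 to 0.256, unadjusted p 0.0191, adjusted p 1) and 0.11 ± 0.056 at 2 h (95% interval -0.007 to 0.223, unadjusted p 0.065, adjusted p 0.806). In these 4 comparisons, and in the one of 4 h over 2 h for both compounds (BCL6 -0.021 ± 0.040, adjusted p 0.937), edgeR called 0 genes, or 0%. Unadjusted p-values under 0.05 numbered 770 for Neg1 over DMSO, 1063 for Neg2 over DMSO, 464 and 1126 for Neg1 over Neg2 at 4 and 2 h, and 1394 over time, while DESeq2 called 1, 4, 1, 1 and 9 genes in the same order. With no filter on low genes edgeR called 74, 119, 47, 143 and 196, and with only the compared groups in the fit 42 for Neg2 over DMSO. Without the second Neg2 library at 2 h it called 83 for Neg1 over Neg2 at 2 h and 113 over time, so the count of 0 holds for the fit used here and not for these.

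At 4 h CDK-TCIP1 was also set against each comparison compound. CDK-TCIP1 30 nM over Neg1 gave -0.21 ± 0.051 (adjusted p 0.00242; 31.1% of genes passed), whereas over Neg2 it gave -0.069 ± 0.051 (95% interval -0.174 to 0.036, adjusted p 0.335; 31.1% of genes passed). Over their mean it was -0.14 ± 0.043 (adjusted p 0.0117; 38.2% of genes passed), a call lost without the second CDK-TCIP1 4 h library (-0.124, adjusted p 0.0577) and with length-scaled counts (-0.061, adjusted p 0.368). The call over Neg1 was also lost with length-scaled counts (-0.099, adjusted p 0.25). In the order of group means from the lowest, CDK-TCIP1 at 2 h came first with 332 CPM at 30 nM, 335 CPM at 10 nM and 336 CPM at 100 nM, followed by 342 CPM at 30 nM for 4 h, and these 4 groups overlapped. Neg2 came next at 359 CPM (4 h) and 368 CPM (2 h), without overlap with each other or with their neighbours. Neg1 at 4 h, Neg1 at 2 h and DMSO stood highest at 395, 397 and 401 CPM, with overlapping libraries. By library, the highest CDK-TCIP1 value of 355 CPM lay just below the lowest of the other groups at 356 CPM, and on the TPM scale these ranges overlapped.

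**Figure D3:**
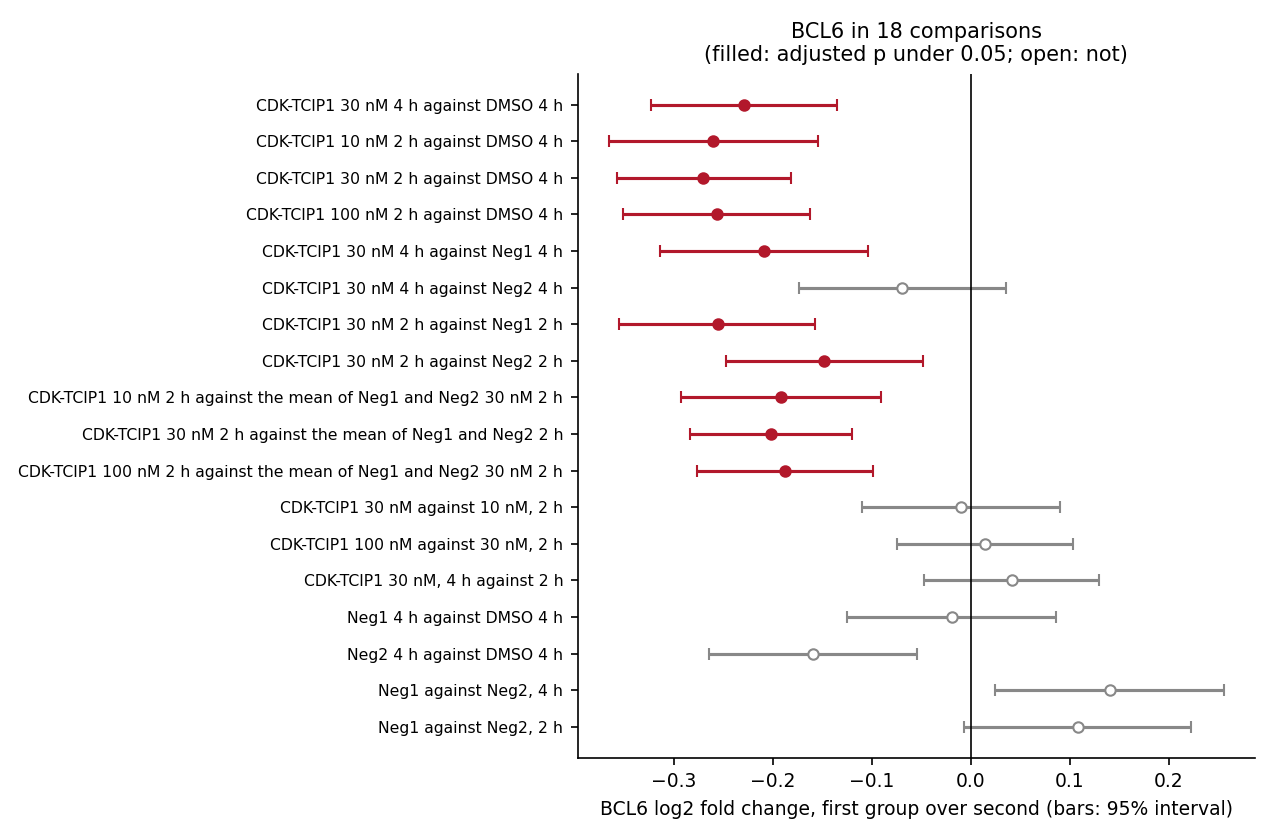
Log2 fold change of BCL6 in 18 comparisons, the first named group over the second, with 95% intervals; filled points have an adjusted p under 0.05. The 10 filled points lie between -0.27 and -0.148, and the open points include CDK-TCIP1 over Neg2 at 4 h, at -0.069.

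Most of the BCL6 counts, and a called fall, lay in the main transcript. BCL6-202 (ENST00000406870), the full-length mRNA from exon 1, held 69.1 to 79.6% of the BCL6 counts of a library. It was at 246, 233 and 266 CPM in CDK-TCIP1 30 nM 4 h libraries, against 307, 302 and 299 CPM in DMSO libraries. These groups did not overlap, and the log2 fold change was -0.28 ± 0.048 (adjusted p 0.000854 by edgeR over 74793 transcripts, of which 6.86% passed). At 2 h it was at 236, 254, 248 and 236 CPM with CDK-TCIP1 30 nM, against 300 and 287 CPM with Neg1 and 279 and 283 CPM with Neg2. The log2 fold change over the mean of Neg1 and Neg2 was -0.24 ± 0.041 (adjusted p 0.00137; 6.98% of transcripts passed). The main transcript also fell at 4 h over the mean of Neg1 and Neg2 (-0.25 ± 0.045, adjusted p 0.00125; 7.53% of transcripts passed) and over Neg2 alone (-0.19 ± 0.053, adjusted p 0.0473; 4.86% passed), the comparison in which the gene total did not pass. At 100 nM it was -0.30 ± 0.048 over DMSO (adjusted p 0.000376; 9.34% passed) and -0.23 ± 0.045 over Neg1 and Neg2 (adjusted p 0.00225; 11.1% passed). At 10 nM it was -0.33 ± 0.051 over Neg1 and Neg2 (adjusted p 0.00308; 1.2% passed), a call lost without either 10 nM library (adjusted p 0.174 and 0.0505) and with only the compared groups in the fit (0.207). With only the compared groups, the call at 100 nM over Neg1 and Neg2 was lost too (0.0534).

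BCL6-206 (ENST00000450123), which skips the 168-base exon printed above and so encodes a form without part of the zinc fingers, was the transcript with the largest fall among those called in both of the 30 nM comparisons used here. At 2 h it was at 9.42, 8.66, 14.0 and 15.7 CPM with CDK-TCIP1 30 nM, against 27.1 and 27.0 CPM with Neg1 and 24.9 and 26.5 CPM with Neg2. The highest CDK-TCIP1 library lay well below the lowest of the others, and the log2 fold change was -1.14 ± 0.225 (adjusted p 0.00377). At 100 nM the transcript was at 6.29, 15.0 and 10.7 CPM, a log2 fold change of -1.31 ± 0.249 over Neg1 and Neg2 (adjusted p 0.00168, and 0.0533 with only the compared groups in the fit). At 10 nM it was at 15.1 and 17.7 CPM and did not pass (-0.69 ± 0.280, adjusted p 0.361). After 4 h it was at 14.2, 14.8 and 16.1 CPM with CDK-TCIP1 30 nM, against 31.1, 26.8 and 26.5 CPM with DMSO (-0.91 ± 0.258, adjusted p 0.0422). That call was lost when any 1 of the 6 libraries was left out, with adjusted p-values of 0.0773 to 0.135 and values of -0.957 to -0.823. At 4 h Neg1 (22.0 and 19.9 CPM) and Neg2 (11.4 and 17.0 CPM) were themselves lower than DMSO in every library, and CDK-TCIP1 over their mean did not pass (-0.20 ± 0.241, adjusted p 0.753).

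The skipped exon can also be read as a share of the gene. BCL6-206 and BCL6-211 together held 5.14 ± 1.18% of the BCL6 counts with CDK-TCIP1 30 nM at 2 h, against 8.07 ± 0.909% with Neg1 and Neg2 (SD, n = 4 each). Here and below, these 4 reference libraries pool 2 of each compound, so their SD includes the difference between compounds. By compound the share was 7.29 ± 0.151% with Neg1 and 8.85 ± 0.194% with Neg2 (SD, n = 2 each). All 4 CDK-TCIP1 libraries were below all 4 others, which gives the smallest p such groups allow in a two-sided exact permutation test (0.0286, or 0.0572 adjusted over the 6 share tests). The 3 shares tested in this way were chosen after the transcript values had been seen. Their permutation p-values, here and below, thus describe the separation and are no independent test. The adjustment over 6 tests does not cover that choice. At 4 h the share was 4.76 ± 0.281%, against 7.89 ± 0.408% with DMSO (SD, n = 3 each), again without overlap (exact permutation p 0.1, the smallest possible, adjusted 0.12). In the test of shares over all transcripts (edgeR's diffSpliceDGE, 65009 transcripts) no BCL6 transcript passed in either comparison. There 0.868% of transcripts passed at 4 h over DMSO (564, with 5650 at an unadjusted p under 0.05) and 1.09% at 2 h over Neg1 and Neg2 (707, with 5962 at an unadjusted p under 0.05). BCL6-206 came nearest at 2 h, with -0.65 relative to the gene on the log2 scale (unadjusted p 0.0116, adjusted p 0.274). The share of BCL6-202 stood at -0.020 relative to the gene in both comparisons.

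**Figure D4:**
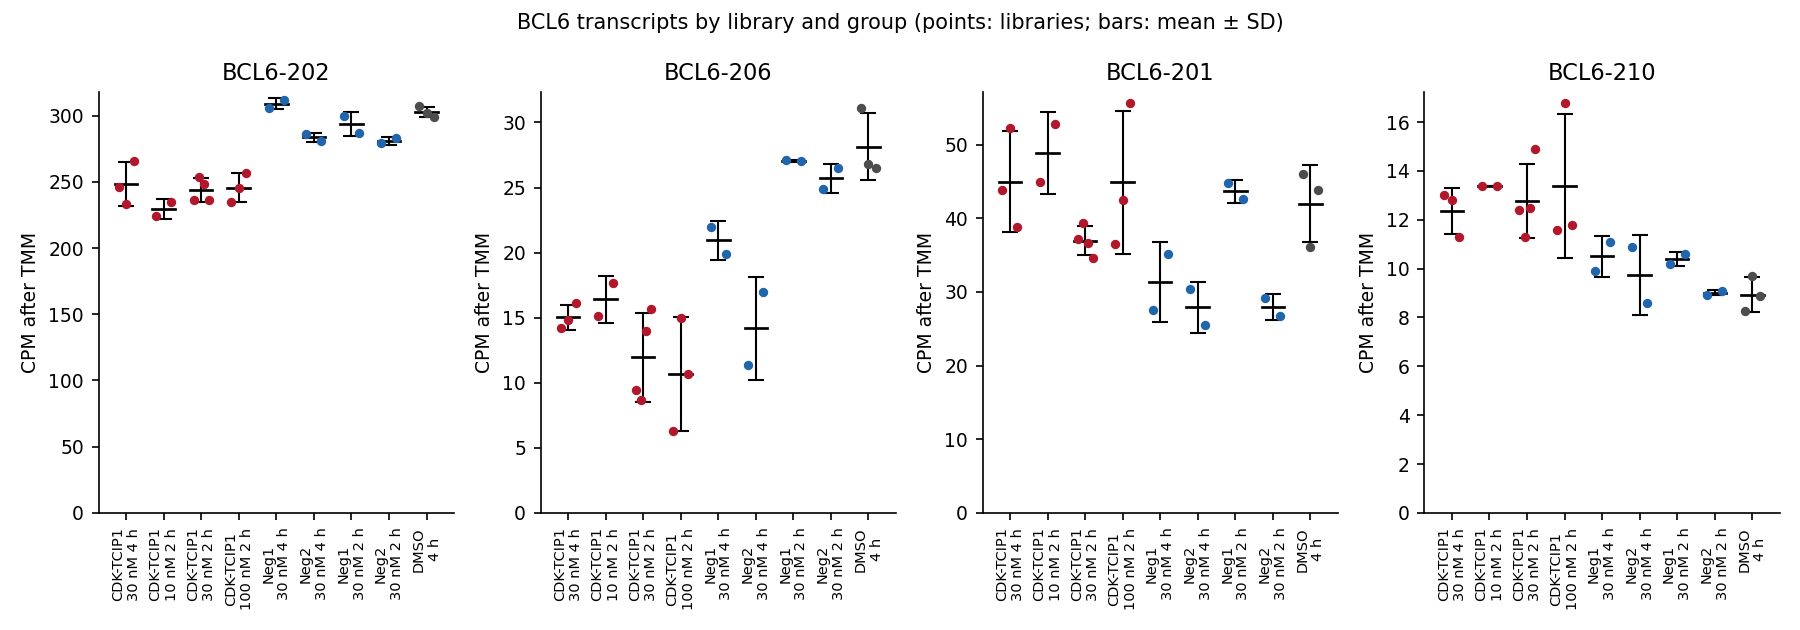
Levels of 4 BCL6 transcripts in each library, in CPM after TMM scaling, by group, with the mean and 1 SD; each panel has its own axis, drawn from 0. BCL6-202 and BCL6-206 are lower in the CDK-TCIP1 groups than in DMSO, whereas BCL6-210 is higher, from 11.3 to 16.8 CPM against 8.25 to 9.69 CPM.

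Not every BCL6 transcript went down. BCL6-210 (ENST00000496823) is a short noncoding form that joins exon 1 to an exon inside the first intron at chr3:187736187-187737274. That exon overlaps the internal first exons of BCL6-201 (chr3:187736090-187736569) and BCL6-203 (chr3:187736090-187737088). The values of these forms are therefore not independent, and the part of shared reads in them was not tested. It was at 13.0, 12.8 and 11.3 CPM in CDK-TCIP1 30 nM 4 h libraries, against 8.25, 9.69 and 8.88 CPM in DMSO libraries. The log2 fold change was 0.47 ± 0.160 and did not pass over all transcripts (adjusted p 0.101), although every CDK-TCIP1 library lay above every DMSO library. At 100 nM for 2 h the transcript was at 11.6, 16.8 and 11.8 CPM. It rose over DMSO at 4 h, with time confounded (0.58 ± 0.160, adjusted p 0.0275, edgeR; 9.34% of transcripts passed). Over Neg1 and Neg2 at 2 h it did not pass (0.47 ± 0.149, adjusted p 0.0517). Nor did it pass over Neg1 and Neg2 at 30 nM, at 2 h (0.40 ± 0.138, adjusted p 0.102) or at 4 h (0.29 ± 0.149, adjusted p 0.301). As a share of the gene it held 3.92 ± 0.494% with CDK-TCIP1 30 nM at 2 h, against 2.57 ± 0.138% with Neg1 and Neg2 (SD, n = 4 each; exact permutation p 0.0286, adjusted 0.0572). At 4 h the share was 3.69 ± 0.334%, against 2.23 ± 0.216% with DMSO (SD, n = 3 each; exact permutation p 0.1, the smallest possible).

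BCL6-201, the coding form from the internal first exon, did not pass over DMSO at 4 h, with 43.8, 52.3 and 38.8 CPM with CDK-TCIP1 against 46.0, 36.1 and 43.9 CPM (0.099 ± 0.150, adjusted p 0.832). It was higher than the mean of Neg1 (27.5 and 35.2 CPM) and Neg2 (30.4 and 25.5 CPM) at 4 h (0.60 ± 0.139, adjusted p 0.0104), a call lost in 3 of 7 fits that left out 1 library (adjusted p up to 0.0778) and with only the compared groups (0.0556). The starts in the internal exon, BCL6-201 and BCL6-203 together, held 12.3 ± 0.294% of the counts with CDK-TCIP1 30 nM at 2 h, against 10.0 ± 2.01% with Neg1 and Neg2 (SD, n = 4 each; exact permutation p 0.0286, adjusted 0.0572), and 14.0 ± 2.55% at 4 h, against 11.3 ± 0.766% with DMSO (exact permutation p 0.3). At 2 h the share of every CDK-TCIP1 30 nM library (at most 12.7%) lay just above that of Neg1 (11.6 and 11.9%) and further above that of Neg2 (7.73 and 9.0%). BCL6-201 itself was -0.24 ± 0.157 over Neg1 (adjusted p 0.54) and 0.40 ± 0.162 over Neg2 (adjusted p 0.218) at 2 h. BCL6-211, the other form without the 168-base exon, was at 1.01, 1.95 and 0 CPM with CDK-TCIP1 at 4 h, against 6.0 and 5.36 CPM with Neg1 and 9.45 and 6.86 CPM with Neg2. Its log2 fold change was -2.79 ± 0.774 (adjusted p 0.0335), lost in 5 of 7 fits that left out 1 library, with the compared groups alone (0.217) and in the fit with the replicate number as a block (-2.71, adjusted p 0.0655). Over DMSO, which had 3.14 to 3.99 CPM, it did not pass at 4 h (-1.84 ± 0.776, adjusted p 0.206), although limma on log2(TPM + 0.5) called it (-1.21, adjusted p 0.0232). At 2 h BCL6-211 was at 3.12 to 7.82 CPM with CDK-TCIP1 30 nM, against 1.33 and 1.56 CPM with Neg1 and 6.26 and 6.87 CPM with Neg2, and the values had the other sign over their mean (0.65 ± 0.646, adjusted p 0.672) and over Neg1 (1.74 ± 0.863, adjusted p 0.381). The difference over time was -3.44 ± 0.994 and did not pass (adjusted p 0.174). The other transcripts were minor. BCL6-205 held 1.84 to 3.61% of the counts, BCL6-203 at most 1.66%, BCL6-208 at most 0.858%, BCL6-204 at most 0.439%, BCL6-207 at most 0.181% and BCL6-209, which was too low to test, at most 0.168%. Estimated counts divide shared reads among these overlapping forms, so the small ones are less certain than the total.

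Genes transcribed on the opposite strand overlap BCL6, and reads of a gene and its antisense partner cannot be told apart where the strand setting is not given. ENSG00000285938, which covers exon 1, was at 6.63 CPM with CDK-TCIP1 30 nM at 4 h, against 4.62 CPM with DMSO (0.52 ± 0.174, adjusted p 0.0206), and at 8.08 CPM at 2 h, against 4.95 CPM with Neg1 and Neg2 (0.70 ± 0.150, adjusted p 0.000589). ENSG00000228804, which covers the other end, stayed at or under 0.688 CPM. Whether these counts take part in the values of BCL6-210 was not tested.

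Corepressors of BCL6 were called in both directions, with more falls than rises. Of 27 corepressor genes tested at 30 nM and 4 h over DMSO, 3 rose and 13 fell, with a median log2 fold change of -0.17, whereas over all genes 17.5% rose and 19.3% fell. BCOR, which binds the BTB domain and belongs to a Polycomb complex, was at 125 ± 7.76 CPM, against 95.4 ± 3.0 CPM (0.39 ± 0.096, adjusted p 0.00193), and GPS2, a subunit of the NCOR complex, was at 52.9 ± 4.26 CPM, against 46.0 ± 1.38 CPM (0.20 ± 0.069, adjusted p 0.0235). RING1, a ubiquitin ligase of Polycomb complexes, was at 16.8 ± 1.5 CPM, against 29.8 ± 0.968 CPM (-0.83 ± 0.113, adjusted p 1.81e-06). MTA3, the subunit through which BCL6 contacts the NuRD complex, was at 103 ± 2.8 CPM, against 170 ± 2.23 CPM (-0.73 ± 0.058, adjusted p 2.86e-10; SD, n = 3 each for all 4 genes). NCOR1, a direct partner named after its values were seen, fell by a small amount (-0.21 ± 0.059, adjusted p 0.00521). At 2 h over Neg1 and Neg2, where 19.1% of all genes rose and 18% fell, 5 corepressor genes rose and 10 fell. At 4 h over Neg1 and Neg2, where 18.5% rose and 19.7% fell, 2 rose and 12 fell.

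Among 25 tested genes that regulate BCL6 transcription (26 listed), 4 rose and 10 fell at 4 h over DMSO, or 56.0% called against 36.8% of all genes, with a median of -0.11. POU2AF1, a B cell coactivator, was at 287 ± 19.1 CPM, against 485 ± 47.4 CPM (-0.75 ± 0.071, adjusted p 5.8e-09), and STAT5A, known to repress BCL6, was at 16.2 ± 1.63 CPM, against 25.2 ± 0.4 CPM (-0.64 ± 0.088, adjusted p 2.36e-06). FOXO3, a forkhead factor known to activate BCL6, rose to 22.0 ± 1.71 CPM, against 14.8 ± 0.459 CPM (0.57 ± 0.116, adjusted p 0.000323), and the germinal centre factor MYBL1 to 416 ± 18.0 CPM, against 283 ± 4.96 CPM (0.56 ± 0.055, adjusted p 1.38e-08). At 2 h over Neg1 and Neg2, 10 rose and 7 fell (68.0%, against 37.1% of all genes), with a median of 0.11, and at 4 h over Neg1 and Neg2, 5 rose and 8 fell (52.0%, against 38.2%), with a median of -0.046. IRF4, a known repressor of BCL6 in plasma cell differentiation, was too low to test.

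Of 15 genes for BCL6 protein turnover and partner proteins, 4 rose and 2 fell at 4 h over DMSO (median 0.086), a share of 40.0% that is close to the 36.8% of all genes. At 2 h over Neg1 and Neg2, 7 rose and 0 fell (46.7%, against 37.1% of all genes; median 0.11), and at 4 h over Neg1 and Neg2, 8 rose and 1 fell (60.0%, against 38.2%; median 0.15). ZBTB17, the transcription factor MIZ1 with which BCL6 represses CDKN1A, rose to 43.8 ± 1.79 CPM at 4 h, against 19.6 ± 0.89 CPM with DMSO (1.16 ± 0.074, adjusted p 7.19e-12), and ZBTB7A to 161 ± 7.9 CPM, against 131 ± 4.52 CPM (0.31 ± 0.067, adjusted p 0.000696). HSP90AA1, the chaperone known to stabilise BCL6, fell to 2120 ± 72.2 CPM, against 2540 ± 184 CPM (-0.26 ± 0.061, adjusted p 0.00158). CUL1, the scaffold of the ligase that degrades BCL6, was called lower with overlapping libraries (85.9 to 100 CPM, against 97.3 to 119 CPM; -0.28 ± 0.088, adjusted p 0.0142).

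Genes described as repressed by BCL6 were called in both directions at 4 h over DMSO. Of 32 tested members (40 listed), 8 rose and 11 fell (59.4% called, against 36.8% of all genes), with a median of 0.017 that turns to -0.061 with length-scaled counts. At 2 h over Neg1 and Neg2, 5 rose and 9 fell (43.8%, near the 37.1% of all genes; median -0.13), and at 4 h over Neg1 and Neg2, 9 rose and 10 fell (59.4%, against 38.2%; median 0.070). CDKN1B, the cell cycle inhibitor p27, had the largest called rise, at 101 ± 6.51 CPM against 34.1 ± 5.02 CPM with DMSO (1.57 ± 0.086, adjusted p 4.42e-13). CD69, an activation marker, was at 49.4 ± 4.53 CPM, against 27.7 ± 1.08 CPM (0.84 ± 0.110, adjusted p 1.1e-06). NOTCH2 was at 6.55 ± 0.722 CPM, against 12.2 ± 0.416 CPM (-0.90 ± 0.139, adjusted p 1.24e-05), and the interferon regulator IRF7 at 3.96 ± 0.439 CPM, against 6.49 ± 0.645 CPM (-0.71 ± 0.223, adjusted p 0.0133).

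BTB zinc finger relatives of BCL6 also split, with 10 rises and 6 falls among 30 tested members (32 listed) at 4 h over DMSO (53.3% called, against 36.8% of all genes; median 0.10). At 2 h over Neg1 and Neg2, 9 rose and 9 fell (60.0%, against 37.1%; median -0.055), and at 4 h over Neg1 and Neg2, 11 rose and 7 fell (60.0%, against 38.2%; median 0.087). ZBTB18, a repressor, rose to 59.4 ± 8.58 CPM, against 27.7 ± 1.4 CPM (1.10 ± 0.114, adjusted p 2.85e-08). ZBTB33, known as Kaiso, fell to 37.2 ± 5.5 CPM, against 61.9 ± 4.3 CPM (-0.74 ± 0.099, adjusted p 1.6e-06), and ZBTB44 to 52.4 ± 3.18 CPM, against 78.8 ± 5.86 CPM (-0.59 ± 0.074, adjusted p 6e-07). BCL6B, the closest relative of BCL6, was too low to test, at no more than 0.176 CPM in any library. CDK9, the kinase that CDK-TCIP1 holds at its other end, rose to 77.5 ± 2.63 CPM at 30 nM for 4 h, against 47.9 ± 2.58 CPM with DMSO (SD, n = 3 each; 0.69 ± 0.088, adjusted p 6.57e-07). In this comparison the mRNAs of the 2 proteins joined by the molecule were thus called in opposite directions. At 2 h CDK9 was at 69.1, 65.3 and 49.3 CPM at 10, 30 and 100 nM, against 46.2 CPM with Neg1 and 44.7 CPM with Neg2. On the TPM scale these means were 68.1, 52.0 and 35.6, against 46.9 and 46.6. At 100 nM CDK9 thus lay below both compounds in TPM, as BCL6 did.

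Within 1 Mb of BCL6, 16 of 46 annotated genes were high enough to test, and at 4 h over DMSO 5 fell and 1, the antisense gene at exon 1, rose. That is 37.5% of them, at the background of 36.8% of all genes, so the count says nothing particular of the neighbours. At 2 h over Neg1 and Neg2, 2 rose and 4 fell (37.5%, against 37.1%; median -0.24), and at 4 h over Neg1 and Neg2, 0 rose and 5 fell (31.2%, against 38.2%; median -0.090). The neighbours that fell most are noncoding RNAs in the long interval between BCL6 and LPP. LINC01991, at chr3:187958775-187976407, was at 7.87 ± 1.12 CPM with CDK-TCIP1, against 37.2 ± 2.82 CPM with DMSO (SD, n = 3 each; -2.24 ± 0.099, adjusted p 7.37e-15), and at 18.7 ± 1.79 CPM at 2 h, against 38.4 ± 1.18 CPM with Neg1 and Neg2 (SD, n = 4 each; -1.04 ± 0.079, adjusted p 2.62e-10). ENSG00000236864, at chr3:187932764-187946221, was low throughout and fell as well (0.154 CPM with CDK-TCIP1, against 0.912 CPM with DMSO, -2.53 ± 0.470, adjusted p 0.00012). On the other side ST6GAL1, a sialyltransferase of B cell surface proteins, was at 142 ± 5.1 CPM, against 290 ± 9.63 CPM (-1.02 ± 0.046, adjusted p 1.15e-14). EIF4A2 (-0.17 ± 0.051, adjusted p 0.0113) and RPL39L (-0.33 ± 0.107, adjusted p 0.0169) also fell. LPP itself was at 262 CPM, against 261 CPM (0.007 ± 0.058, adjusted p 0.942), although at 2 h it rose over Neg1 and Neg2 (0.27 ± 0.050, adjusted p 0.000134). RFC4, HRG-AS1, LPP-AS2, MASP1, PSMD10P2, LINC02043, ENSG00000225058, ENSG00000263826 and ENSG00000228804 did not pass at 4 h over DMSO. The median of the 16 at 4 h over DMSO was 0.022, with -0.062 under length-scaled counts and 0.148 under the replicate block.

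**Figure D5:**
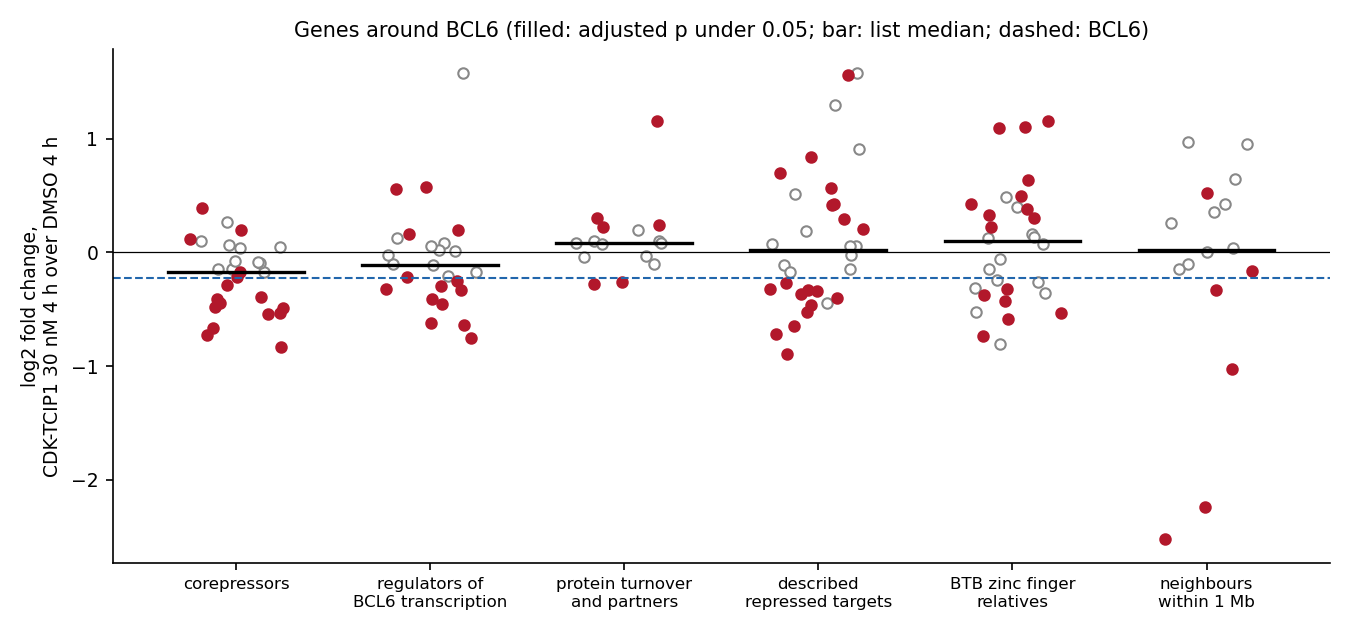
Log2 fold change at CDK-TCIP1 30 nM 4 h over DMSO 4 h for each tested gene of 6 lists around BCL6; filled points have an adjusted p under 0.05, the bar is the list median and the dashed line is BCL6 at -0.23. Corepressors have the lowest median at -0.17, and the lowest points among the neighbours are ENSG00000236864 at -2.53 and LINC01991 at -2.24.

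Among the genes whose pattern over the 9 group means of log2 CPM was most like that of BCL6, out of 7325 protein-coding genes of sufficient level, were KLF16 (Pearson r 0.951), SGTA (0.942), TM7SF3 (0.937) and POM121 (0.936). These points share libraries and dose groups, and the values are a description. KLF16 had a log2 fold change of -0.41 ± 0.102 and POM121 of -0.30 ± 0.058 at 30 nM and 4 h over DMSO, set beside -0.23 ± 0.046 for BCL6. SGTA and TM7SF3 had smaller values than BCL6 in that comparison, at -0.158 ± 0.055 and -0.118 ± 0.068.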

How the data were processed

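Poly(A) RNA of 23 libraries was sequenced in paired ends, per the labels' protocols. FastQC, cutadapt, kallisto and DESeq2 are named in the submitters' processing notes, and the sources used here give no version, transcript set or strand setting. In the tables the authors deposited are kallisto's estimated counts and TPM for 227912 transcripts per library. An estimated count divides shared reads among matching transcripts. Identifiers were matched without version numbers to GENCODE 29 (205964 matched, and the rest held 1.16 to 1.28% of a library's counts and were left out). BCL6-202 is 3306 bases long in the deposited tables and 3569 in GENCODE 29. Estimated counts were summed per gene and rounded. The deposited TPM values were used for levels per length, for length-scaled counts and for a limma 3.58.1 alternative on log2(TPM + 0.5).

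Groups came from the sample titles. Replicates differed by more than sampling noise (chi-square per degree of freedom 4.32 to 14.2), and none was counted as a repeat. The main test was edgeR's quasi-likelihood F test (edgeR 4.0.16, R 4.3.3) with TMM and filterByExpr, in a single fit of all libraries with a coefficient per group and 14 residual degrees of freedom. The Benjamini-Hochberg adjustment ran over 17743 genes or 74793 transcripts. The common biological coefficient of variation was 0.0988 for genes and 0.812 for transcripts. A gene is said to have passed, been called, risen or fallen where its adjusted p is below 0.05. TMM sets fold changes against the bulk of genes and hides any common shift of all mRNA. A standard error is the log2 fold change over the root of its F, and intervals are 95% intervals. Levels are CPM after TMM, and those of group means and libraries come with the SD over libraries. Shares of transcripts were tested with diffSpliceDGE and, for 3 sums in 2 comparisons, with exact permutation over libraries (SciPy 1.17.1). The scripts were tested on simulated data, in which transcript counts were given less spread than the common value above. That run does not show how the transcript and share tests perform on these data.

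Alternatives were DESeq2 1.42.0, other size factors, no filter, the compared groups alone, each library left out, 2 libraries left out together, the replicate number as a block, length-scaled counts and protein-coding transcripts only. The 2 libraries left out together were the first of CDK-TCIP1 100 nM and the first of Neg2, both at 2 h. The Neg2 libraries at 2 h deviate equally from their group mean (0.366), as any pair does, so this deviation does not mark the first. Library totals without TMM, the summed transcript shares and the transcript fit without the 2 libraries left out together were added after seeing the data. BCL6, the lists and the tests were chosen with earlier results of these data known. Lists were written from general knowledge, and each gave its 2 most raised and 2 most lowered called members at 30 nM and 4 h over DMSO as named genes, if their average log2 CPM was at least 2. Every tested gene within 1 Mb, every BCL6 transcript, CDK9 and BCL6B were named whatever their values, and so were the 5 protein-coding genes most like BCL6 whose average log2 CPM reached 4, of which 1 is not reported here.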

Additional observations from a re-analysis of the deposited data

How the results depend on the processing

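BCL6 was lower in all 12 comparisons of CDK-TCIP1 with DMSO, Neg1 or Neg2 under each of the 9 settings run on every comparison, and called in 11 of 12 as reported, in 7 with length-scaled counts, in 10 with no filter or with only the compared groups, and in 11 under the others. Length-scaled counts took the call from CDK-TCIP1 30 nM at 4 h over Neg1 (-0.099) and over the mean of Neg1 and Neg2 (-0.061), at 2 h over Neg2 (-0.125) and from 10 nM over the mean of Neg1 and Neg2 (-0.118). They also lowered the genes called to 3669 (6535 as reported) at 30 nM and 4 h over DMSO, 3871 (6780) over Neg1 and Neg2 at 4 h and 3761 (6582) at 2 h. List members called at 4 h over DMSO came to 10 (16) corepressors, 8 (14) regulators, 3 (6) turnover genes and partners, 12 (19) repressed targets and 10 (16) BTB relatives. The call at 30 nM and 2 h over Neg2 was lost with no filter (-0.161), and that at 10 nM over Neg1 and Neg2 with only the compared groups (-0.189). For 100 over 30 nM the sign turned with no filter (-0.005) and with library totals (-0.074), and for Neg1 over DMSO with library totals (0.001), none of these being called. The causes were not tested.

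With each library left out in turn, BCL6 ranged from -0.226 to -0.16 at 10 nM over Neg1 and Neg2, from -0.158 to -0.134 at 30 nM and 2 h over Neg2, from -0.164 to -0.124 at 30 nM and 4 h over Neg1 and Neg2, from -0.027 to 0.065 for 100 over 30 nM and from -0.048 to 0.018 for 30 over 10 nM. At 4 h over DMSO, BCL6-206 ranged from -0.957 to -0.823, BCL6-201 from -0.022 to 0.198 (and -0.038 with limma on TPM), the share of BCL6-202 from -0.046 to 0.001, and 1 BCL6 transcript was called in each such fit, against 2 as reported. No pairing by replicate number was seen, as the 78 correlations of same-numbered libraries, in deviations from group means, ran from -0.044 to 0.044. These correlations cannot exclude a weak pairing, since low genes count as much as high ones. They are also not all independent, since in groups of 2 libraries the deviations mirror each other. With the replicate block BCL6 was -0.229 at 30 nM and 4 h over DMSO, the 12 values ran from -0.273 to -0.087, and the counts of genes called were 0.904 to 1.03 times those reported.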
